A study of Mus musculus with 2 samples.

Results

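Mir106b, Mir93 and Mir25 are 3 miRNA genes in 1 intron of Mcm7, and their counts were examined in small RNA libraries of whole mouse stomach. The genes were chosen by symbol: of the 1973 listed miRNA genes, the 3 whose Ensembl identifiers carry these names in GENCODE were taken. No measured value entered this rule, but earlier results of these data were known when it was set. All 3 were listed in both libraries, and all 3 passed the minimum of 10 summed counts. Stomachs of B6NCrl embryos of both sexes were dissected at embryonic day 15.5 and pooled, from 78 animals for replicate 1 and from 62 for replicate 2. The labels call the animals healthy and name no mutation or treatment. The pools form 1 group, so the comparisons are between genes of a library and between the pools. In whole tissue, fewer cells of a type and less RNA per cell cannot be told apart.

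Mcm7 encodes a subunit of the helicase that opens DNA for replication, and its transcription rises in cells that enter the cell cycle. The 3 miRNAs are cut from the same primary transcript by Drosha and then by Dicer, after which 1 arm of each hairpin is mostly kept in Argonaute. They are paralogs of the miR-17-92 cluster: miR-106b and miR-93 belong to the miR-17 family, which represses cell cycle inhibitors such as Cdkn1a, and miR-25 belongs to the miR-92 family, which represses Cdkn1c and Bcl2l11. In the embryonic stomach, proliferating epithelium and mesenchyme are both possible sources.

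The hairpins are printed because each deposited count is the sum over a whole hairpin, both arms included. Sequences are from RefSeq (GRCm38.p6, the assembly also called mm10), 5′ to 3′, with the 5p and 3p mature arms in capitals.
Mir106b hairpin: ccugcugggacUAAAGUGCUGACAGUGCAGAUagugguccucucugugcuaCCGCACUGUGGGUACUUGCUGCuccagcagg
Mir93 hairpin: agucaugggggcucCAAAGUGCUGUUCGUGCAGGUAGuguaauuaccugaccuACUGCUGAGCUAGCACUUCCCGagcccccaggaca
Mir25 hairpin: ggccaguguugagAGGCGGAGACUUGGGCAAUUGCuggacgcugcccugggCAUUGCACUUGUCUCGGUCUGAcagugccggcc

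The 3 hairpins had similar lengths of 82, 88 and 84 bases. Their predicted folding energies from RNAfold were -41.0 kcal/mol for Mir106b, -46.3 kcal/mol for Mir93 and -35.9 kcal/mol for Mir25. Mir93 thus had the lowest predicted energy and Mir25 the highest. Each of the 6 mature arms occurred in 1 hairpin of the RefSeq table, which holds 1005 hairpins. In GENCODE transcripts each arm matched only its own gene or, for the arms of Mir93 and Mir25, an Mcm7 transcript with a retained intron over the same bases. A search of the whole genome was not made.

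The 3 genes lie on the minus strand of chromosome 5 (mm10), all in intron 13 of the transcript Mcm7-201, which has 15 exons. Mir106b comes first in the direction of transcription, at chr5:138165737-138165818, 91 bases after exon 13. Mir93 follows 126 bases further on, at chr5:138165523-138165610, and Mir25 after another 118 bases, at chr5:138165321-138165404. From the first to the last base the cluster spans 498 of the 748 bases of the intron. Mir93 and Mir25 also lie inside exon 1 of Mcm7-202, the retained-intron transcript. Mcm7 mRNA is not measured in these tables.

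**Figure D1:**
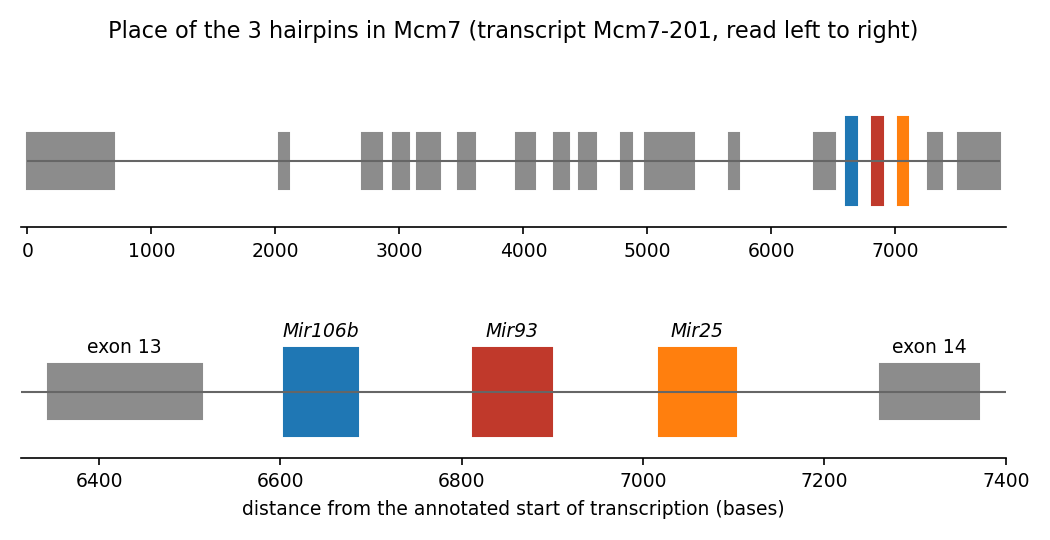
Map of Mcm7-201, drawn to scale with distance from its annotated start of transcription in bases on the x axis. The upper panel shows the whole transcript and the lower panel the end of it, with exons in grey and hairpins in colour. Mir106b, Mir93 and Mir25 stand in that order between exons 13 and 14.

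The main mature products fall into 2 seed families, and the seed (bases 2 to 8, in capitals) is the part that pairs with targets. Which arm the counts come from is not recorded in the tables, and the main arms named here are background. The first set shares the seed AAAGUGC and holds both miR-106b-5p and miR-93-5p.
miR-106b-5p: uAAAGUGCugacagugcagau
miR-93-5p: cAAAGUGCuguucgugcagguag
miR-17-5p: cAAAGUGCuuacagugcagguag
miR-20a-5p: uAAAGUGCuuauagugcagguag
miR-106a-5p: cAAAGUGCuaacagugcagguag
miR-20b-5p: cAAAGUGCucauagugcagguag
The second set shares the seed AUUGCAC and holds miR-25-3p.
miR-25-3p: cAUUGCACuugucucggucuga
miR-92a-3p: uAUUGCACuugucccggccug
miR-92b-3p: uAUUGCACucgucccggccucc
miR-32-5p: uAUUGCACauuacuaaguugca
miR-363-3p: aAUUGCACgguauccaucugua

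With positions counted from 1 at the 5′ end and no gaps, miR-93-5p differed from miR-17-5p by 4 substitutions, all just after the seed: U10G, A11U, C12U and A13C. miR-106b-5p differed from miR-17-5p by 3 substitutions over 21 bases, C1U, U10G and G20A. The 2 members differed from each other at 5 positions. miR-25-3p differed from miR-92a-3p by U1C, C14U and C18U. No member had the exact mature sequence of a relative, whereas miR-92a-3p occurred in 2 hairpins, those of Mir92-1 and Mir92-2 (the GENCODE symbols of the miR-92a genes). Reads that matched several places were counted apart from genes, so levels of Mir92-1 and Mir92-2 may be too low.

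Mir93 was the most abundant of the 3 genes, Mir106b came next, and Mir25 was far lower. Values are CPM, the sense-strand count of a gene scaled to a common total of sense counts over all miRNA genes in the library. A read of this length covers 1 mature miRNA, so counts were not divided by hairpin length; per base of the gene the order was the same. Mir93 had 50620 counts in replicate 1 (8453 CPM, 95% Wilson interval 8380 to 8526) and 53180 in replicate 2 (7966 CPM, 7899 to 8034). Mir106b had 31836 counts (5316 CPM, 5258 to 5375) and 30154 counts (4517 CPM, 4467 to 4568). Mir25 had 2643 counts (441 CPM, 425 to 458) and 2877 counts (431 CPM, 416 to 447). The ranges of the 3 genes over the pools did not overlap, and the order was the same in both pools.

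As means over the pools, Mir93 stood at 8210 ± 344 CPM (SD, n = 2), Mir106b at 4917 ± 565 CPM and Mir25 at 436 ± 7.32 CPM. In mean CPM they ranked 24, 41 and 129 of 1973 listed genes, of which 1247 had no sense count in either library. Relative to the mean, the spread between pools by library totals was 11.5% for Mir106b, 4.19% for Mir93 and 1.68% for Mir25. This order depends on the scaling: in the same order of genes it was 5.2%, 2.1% and 4.6% with edgeR's TMM and 3.8%, 3.5% and 6.0% with DESeq2 size factors. With 2 pools each SD is itself poorly known, and an exact permutation test of 2 values against 2 cannot go below p = 0.333, so no test between genes was made. No opposite-strand read was counted at any of the 3 genes in either library; a count of 0 allows up to 0.501 and 0.449 CPM in the respective libraries. Only counting error is covered by these limits and by the intervals.

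**Figure D2:**
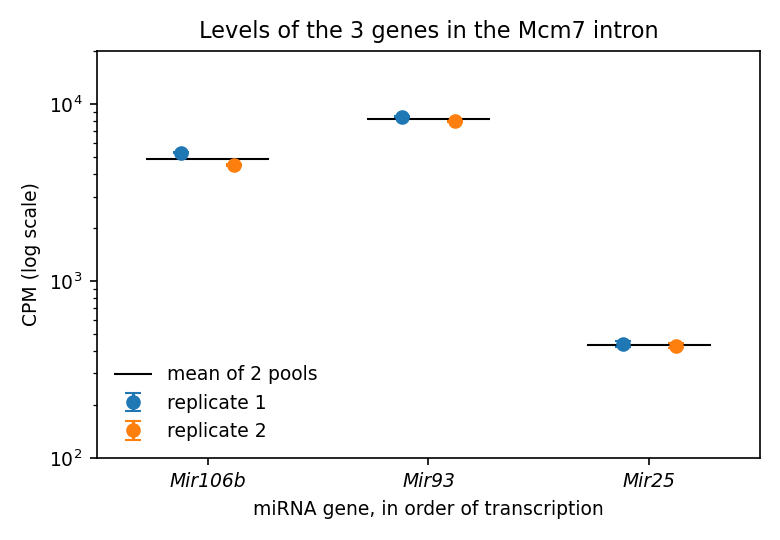
CPM on a log axis for the 3 genes in order of transcription. Points are the pools with 95% Wilson intervals, which are mostly narrower than the symbols, and lines are means. Mir93, the middle gene, was the highest at 8210 CPM, and Mir25, the last, was the lowest at 436 CPM.

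Ratios within a library do not depend on the scaling between libraries. On the log2 scale of counts, Mir93 exceeded Mir106b by 0.67 in replicate 1 (95% exact Clopper-Pearson interval 0.65 to 0.69) and by 0.82 in replicate 2 (0.80 to 0.84), a 1.59-fold and a 1.76-fold excess. The counting intervals of the pools do not overlap, so this ratio differed between pools by more than counting error. Mir93 exceeded Mir25 by 4.26 (4.20 to 4.32) and 4.21 (4.15 to 4.26), or 19.2-fold and 18.5-fold. Here the intervals of the pools do overlap. Mir106b exceeded Mir25 by 3.59 (3.53 to 3.65) and 3.39 (3.33 to 3.45). Means were 0.74 ± 0.11 for Mir93 over Mir106b, 4.23 ± 0.04 for Mir93 over Mir25 and 3.49 ± 0.14 for Mir106b over Mir25 (SD, n = 2). All 3 differences between genes were larger than their spread between pools.

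As shares of the summed counts of the cluster, Mir93 made up 59.5% in replicate 1 and 61.7% in replicate 2, Mir106b 37.4% and 35.0%, and Mir25 3.11% and 3.34%. The level did not follow the order along the transcript, since the middle gene was the highest. The gap of 4.23 between the highest and the lowest gene was near the middle of those in other genomic clusters. Over 41 other clusters of genes on 1 strand, with starts at most 10000 bases apart and at least 10 counts in both libraries, the median gap was 4.06 and the range 0.36 to 12.08. Of these, 20 had a wider gap. The clusters held from 2 to 30 such genes, and a gap from highest to lowest tends to widen with more genes. Over the 5 other clusters with 3 such genes the median gap was 3.97. This set of clusters was defined after the values were seen, and some of its gaps rest on genes with near-identical copies. How far unequal capture of different small RNAs in library preparation adds to such gaps was not tested.

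Each gene stood among others of nearly the same level. The genes nearest to Mir93 by the Euclidean distance of log2(CPM + 1) over the 2 libraries were Mir652 (distance 0.061), Mir98 of the let-7 family (0.091) and Mir20a (0.17), a relative with the same seed. Nearest to Mir106b were Mir744 (0.089), Mir30a (0.14) and Mir30d (0.18). Nearest to Mir25 were Mir421 (0.053), Mir323 (0.086) and Mir195a (0.10). With 2 libraries this likeness is mainly one of level. In the order of mean CPM, the ranges of Mir93 over the pools overlapped those of Mir652 just above it and of Mir98 and Mir20a just below, but not that of Mir127 (9041 to 9058 CPM) above Mir652. Mir106b overlapped Mir744 and Mir30d above and Mir130b below, and not Mir541 next below (4383 to 4493 CPM). Mir25 overlapped Mir323 and Mir195a above, and neither Mir370 (404 to 415 CPM) nor Mir665 (368 to 422 CPM) below.

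The Mcm7 cluster stood between its paralogs. Its 3 genes together held 1.42% of sense counts in replicate 1 and 1.29% in replicate 2. The 6 genes of the Mir17 cluster on chromosome 14 (the miR-17-92 cluster) held 3.74% and 3.29%, which was 2.63-fold and 2.55-fold more. The 6 genes of the Mir106a cluster on chromosome X summed to 511 and 499.6 CPM, and here the Mcm7 cluster was 27.8-fold and 25.9-fold higher. Both paralogous sums hold Mir92 and Mir19b genes whose mature sequence stands in both clusters, so they may be too low, the first of these folds too small and the last too large. The Mcm7 cluster has no counterpart of the miR-18 and miR-19 genes: in the Mir17 cluster Mir18 stood at 3134 ± 324 CPM (SD, n = 2), Mir19a at 45.7 ± 8.98 CPM and Mir19b-1 at 10.7 ± 1.41 CPM. In the Mir106a cluster Mir18b stood at 12.2 ± 0.291 CPM, Mir19b-2 at 4.29 ± 1.35 CPM and Mir363 at 102 ± 8.34 CPM.

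With positions matched by order along each cluster, Mir93 was level with its counterpart on chromosome 14, while Mir106b and Mir25 were below theirs. All 3 were above those on chromosome X. The mature sequences do not decide the first 2 positions. miR-93-5p differed from miR-17-5p and from miR-20a-5p by 4 substitutions each, and miR-106b-5p by 3 each. With Mir17 and Mir20a swapped, Mir93 and Mir106b would both be below their counterparts. Mir17 stood at 22791 and 20435 CPM in replicates 1 and 2, and exceeded Mir106b by 2.14 ± 0.05 on the log2 scale (SD, n = 2), or 4.40-fold. Mir106b in turn exceeded Mir106a (196 and 172 CPM) by 4.74 ± 0.03. Mir20a stood at 8504 and 7073 CPM, just above Mir93 in replicate 1 and below it in replicate 2. Their log2 ratio, Mir20a over Mir93, was 0.01 (exact interval -0.01 to 0.03) and -0.17 (-0.19 to -0.15), a mean of -0.08 ± 0.13, so these 2 genes did not differ beyond the spread between pools. Mir93 exceeded Mir20b (116 and 112 CPM) by 6.17 ± 0.03.

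At the third position Mir92-1 (2631 and 2453 CPM) exceeded Mir25 by 2.54 ± 0.05, or 5.83-fold, and Mir25 exceeded Mir92-2 (87.3 and 89.6 CPM) by 2.30 ± 0.05. Since reads shared by Mir92-1 and Mir92-2 may be missing, the first of these gaps may be too small and the second too large. In each of the 3 clusters the gene of the miR-92 family in the third position was lower than both miR-17 family genes, in both pools. How far missing reads of Mir92-1 and Mir92-2 set this order in their clusters was not tested. Mir20a exceeded Mir92-1 by 1.61 ± 0.12 and Mir20b exceeded Mir92-2 by 0.37 ± 0.05, against 4.23 ± 0.04 for Mir93 over Mir25. The drop to the third position was therefore wider in the Mcm7 cluster by more than the spread between pools, with the missing reads of the Mir92 genes not accounted for. The middle gene was the highest in the Mcm7 cluster alone: Mir17 exceeded Mir20a by 1.48 ± 0.08 and Mir106a exceeded Mir20b by 0.69 ± 0.11.

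**Figure D3:**
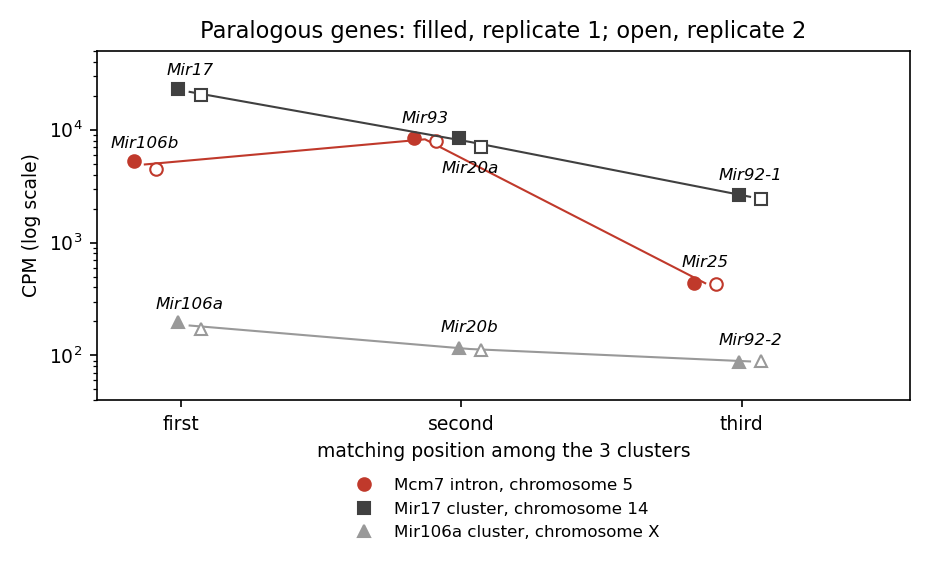
CPM on a log axis at 3 positions of the paralogous clusters, matched by order along each cluster. Filled symbols are replicate 1, open symbols replicate 2, and lines pass through the means. Mir93 (8210 CPM) meets Mir20a (7788 CPM), while Mir106b lies 4.40-fold below Mir17 and Mir25 5.83-fold below Mir92-1.

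Among all listed genes with the same seed, the Mcm7 cluster supplied a larger share of the miR-17 family than of the miR-92 family. Both Mir93 and Mir106b count towards the first share, and only Mir25 towards the second. As single genes, Mir93 supplied more of its family than Mir25 did, and Mir106b less, in both pools. The 7 listed genes with the seed AAAGUGC held 4.54% of sense counts in replicate 1 and 4.03% in replicate 2. Of these, Mir93 supplied 18.6% (95% Wilson interval 18.5 to 18.8) and 19.8% (19.6 to 19.9), and Mir106b 11.7% (11.6 to 11.8) and 11.2% (11.1 to 11.3). Together they supplied 30.7% ± 0.460 (SD, n = 2). Mir17 supplied 50.5% ± 0.362 and Mir20a 18.2% ± 0.835, while Mir106a and Mir20b were each under 1% and Mir6383 had no counts.

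The 7 listed genes with the seed AUUGCAC held 0.358% and 0.341% of sense counts. Of these Mir25 supplied 12.3% (11.9 to 12.8) and 12.7% (12.2 to 13.1), the second largest share after Mir92-1 with 72.7% ± 1.02. Mir92b (169 ± 4.49 CPM) supplied 4.84%, Mir32 (156 ± 3.45 CPM) 4.47% and Mir363 2.94%, and Mir367 had no counts. Mir25 exceeded Mir92b by 1.37 ± 0.01 and Mir32 by 1.48 ± 0.06 on the log2 scale. Since reads shared by Mir92-1 and Mir92-2 may be missing, the shares of the other genes, Mir25 included, may be too high. With both Mir92 genes left out, Mir25 supplied 50.5% of the remaining counts. That value is higher by construction and is no estimate of its share in the family.

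**Figure D4:**
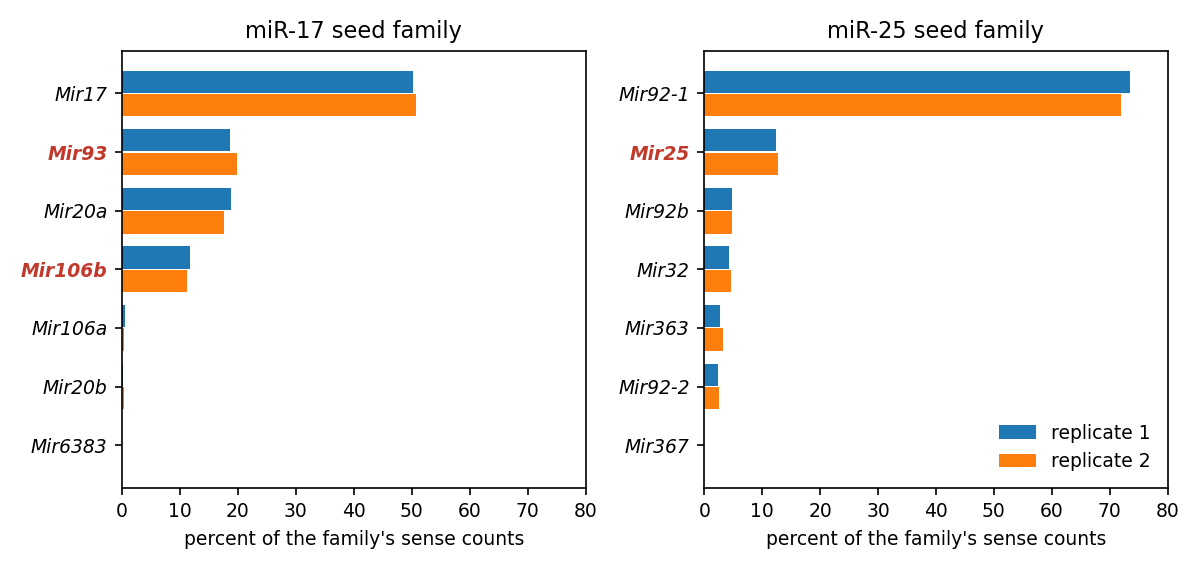
Share of each gene in the summed sense counts of its seed family, in percent, with 1 bar per replicate and the genes of the Mcm7 intron in red. Mir93 and Mir106b together supplied 30.7% of the miR-17 seed family, and Mir25 supplied 12.5% of the family with its own seed, which is led by Mir92-1.

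The pools agreed within 2-fold on all 3 genes. The log2 ratio of replicate 2 over replicate 1, with 1 CPM added, was -0.23 for Mir106b (exact interval -0.26 to -0.21), -0.09 for Mir93 (-0.10 to -0.07) and -0.03 for Mir25 (-0.11 to 0.04). In a two-sided exact binomial test with Benjamini-Hochberg adjustment over the 466 genes with at least 10 summed counts, calls required an adjusted p below 0.05 together with a change of at least 2-fold. None of the 3 genes was called, against 5.79% of all genes tested, a share at which 0 of 3 is no result about these genes. With no fold limit the test passed Mir106b (adjusted p = 3.3e-90) and Mir93 (8.0e-21) and not Mir25 (0.553). Without that limit it passed 46.4% of all genes, since its only error term is counting error while the pools are separate samples. It compares these libraries, not conditions. edgeR's exact test, whose dispersion takes the difference between the pools as spread, passed none of the 3 (lowest unadjusted p 0.601), against 0.858% of all genes.

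The median log2 ratio of the 3 genes was -0.09, beside -0.11 over all genes tested, and the median size of the ratio was 0.09 beside 0.27. By size of the ratio, 208 of the 466 genes had a smaller one than Mir106b, 98 a smaller one than Mir93 and 34 a smaller one than Mir25. Many of the 466 genes had far fewer counts and so a larger counting error, and no comparison at a matched level was made. The direction for Mir93 and Mir25 depends on the scaling. With edgeR's TMM the median of all genes moved to -0.01, and the ratios became 0.04 for Mir93 and 0.09 for Mir25, while Mir106b stayed below 0 at -0.11. With DESeq2 size factors the median was 0.00 and the ratios were 0.07, 0.12 and -0.08. Relative to the median of all genes Mir106b stood at -0.12, -0.09 and -0.08 by the 3 scalings. A scaling shifts all genes nearly alike, so a difference from their median is bound to stay similar and is no check.

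None of the 14 paralogs and seed relatives with enough counts was called either, against 5.79% of all genes tested. At that share this is no result about these genes. Their log2 ratios ran from -0.39 for Mir19a to 0.52 for Mir19b-2, with a median of -0.05. By library totals Mir17 stood at -0.16, Mir20a at -0.27, Mir18 at -0.21 and Mir92-1 at -0.10. With TMM these 4 abundant genes of the Mir17 cluster stood at -0.03, -0.14, -0.08 and 0.03, so Mir92-1 changed direction as Mir93 and Mir25 did. The summed level of the Mcm7 cluster relative to the Mir17 cluster, which needs no scaling, differed little between the pools: the Mir17 cluster was higher by 1.39 in replicate 1 and by 1.35 in replicate 2 on the log2 scale.

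**Figure D5:**
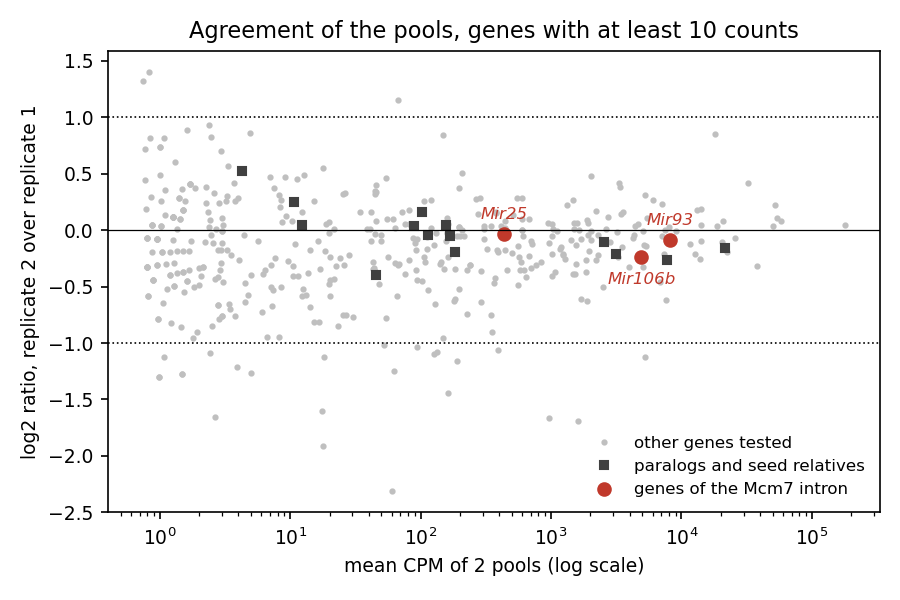
Log2 ratio of replicate 2 over replicate 1, with 1 CPM added, against mean CPM on a log axis for the 466 genes tested. Dotted lines mark 2-fold changes. Between the dotted lines lie 94.2% of all genes tested, among them the 3 genes of the Mcm7 intron (red) and all their relatives (dark squares).

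The libraries held 5988677 and 6675498 sense-strand counts of miRNA genes. Of all reads, 25.5% and 27.0% matched several places. Every listed marker was detected, those of liver and red cells included, so detection is no check of the labelled tissue. The 6 epithelial genes (such as Mir200c and Mir429) together held 6.45% and 7.03% of counts in replicates 1 and 2. Both smooth muscle genes (Mir143 and Mir145a) together held 17.8% and 18.3%. The members of these sums did not keep together: the log2 ratio of replicate 2 over replicate 1 was 0.05 for Mir200c and 0.04 for Mir429, but -0.62 for Mir203, -0.46 for Mir205 and 0.85 for Mir375, and it was 0.05 for Mir143 and -0.51 for Mir145a. Of the other lists, liver (-1.69), red cells (-1.08) and heart and skeletal muscle (0.48) differed more between pools than any of the 3 genes. The last of these lists holds Mir206 at 0.85 and Mir208b at -0.31, in opposite directions. Mir122 of the liver held 0.244% and 0.0757% of counts, and the 3 red cell genes 0.0727% and 0.0345%, with none of the listed markers at 0. Fetal liver and blood also hold dividing cells, and the part of such tissue in the levels of the 3 genes was not tested.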

How the data were processed

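Small RNA was size selected below 30 nt per the labels. The authors deposited 1 table of raw read counts per miRNA gene and library, with mm10 and GENCODE M4 named in the deposited description files, and with the aligner and counter not given in the sources used here. Column meanings were inferred, as no header is present: column 2 is the sum of columns 3 and 4 for every gene, and column 3, which holds nearly all counts of known miRNA genes, was taken as the sense strand. Lines that name no gene were left out of totals: multi-mapping reads (25.5% and 27.0% of reads in replicates 1 and 2), unmapped reads (18.0% and 16.2%) and reads outside miRNA genes (2.92% and 2.26%). Symbols came from GENCODE M21 by identifier without version, which matched 1894 of 1973.

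Each library's sense total scaled counts to CPM. Seed relatives were all listed genes with a RefSeq mature miRNA of a member's seed. Named were the members, both paralogous clusters, seed relatives, the 3 nearest genes by level, 2 order neighbours on each side, and Mir15b and Mir16-2. The members and lists were chosen with earlier results of these data known. The pools come from separate groups of embryos per the labels, and nothing else separates biological from technical spread. The exact test was tested on simulated counts with counting error only, so spread between pools was not part of that check. Alternatives covered scaling, strand, count minimum, fold limit, pseudocount, gene length, the test and leaving out each replicate. Tools were edgeR 4.0.16 and DESeq2 1.42.0 in R 4.3.3, ViennaRNA 2.7.2, and scipy 1.17.1 and pandas 2.3.3 in Python 3.11.15.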

Additional observations from a re-analysis of the deposited data

How the results depend on the processing

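The order Mir93, Mir106b, Mir25 was kept in all 21 recomputed ratios between the 3 genes, but most of these were no new check of it. A pseudocount added to both genes cannot reverse their order, and no opposite-strand read was counted at these genes. Ratios without 1 replicate repeat the values of the single libraries given above. Per base of gene length, with similar lengths, Mir93 over Mir25 went from 4.23 to 4.17. With both strands in the total, Mir25 stood at 422 CPM. With pseudocount 5 Mir106b over Mir106a became 4.70, Mir93 over Mir20b 6.11 and Mir25 over Mir92-2 2.24. Without Mir92-1 and Mir92-2, added after seeing the data, the share of Mir25 in its seed family rose from 12.5% to 50.5%, by construction. The 27 genes called between the pools (3 higher and 24 lower in replicate 2) numbered 16 at a minimum of 100 summed counts, 13 with pseudocount 5, 4 by edgeR's exact test and 216 without a fold limit, which was the only setting run that called any of the 3 genes (2 of them). The scaling changed the split: 6 genes were higher and 16 lower with DESeq2 size factors. The log2 ratio between pools reversed for Mir93 (0.043 with TMM, 0.071 with DESeq2 size factors) and Mir25 (0.094 and 0.12). Leaving out either replicate gave Mir20a over Mir93 as -0.17 to 0.01 and changed the order of no other recomputed pair. No paired analysis was possible because there is only 1 group of samples. Depth did not limit the 3 genes, the lowest of which had 2643 counts. Mir19b-2 had 20 and 35 counts; how far shared reads or depth set so low a count was not tested.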

Other observations

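Another pair of miRNA genes lies in an intron of a gene of the chromosome cycle, Smc4, which encodes a condensin subunit. Mir15b and Mir16-2 stand in intron 5 of Smc4-201 and belong to the miR-15 family, which represses cyclins and thus acts on the cell cycle in the opposite sense to the miR-17 family. Mir15b stood at 599 CPM in replicate 1 and 601 CPM in replicate 2, and Mir16-2 at 238 and 290 CPM. Mir93 exceeded Mir15b by 3.77 ± 0.06 on the log2 scale (SD, n = 2), or 13.7-fold, while Mir15b was above Mir25 in both pools. Mir15b exceeded Mir16-2 by 1.33 (95% exact interval 1.24 to 1.42) in replicate 1 and by 1.05 (0.97 to 1.13) in replicate 2. Mir16-2 has a near-identical copy, and reads that matched several places were counted apart from genes. Neither gene was called between the pools, which at 5.79% called among all genes tested is no result about them. Their log2 ratios were 0.00 for Mir15b and 0.28 for Mir16-2.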
